A study of Mus musculus with 19 samples.

Results

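The mitochondrial ribosomal protein genes were taken as every protein-coding row of the bulk expression table whose symbol starts with Mrpl or Mrps. The rule gave 78 of 33559 rows, 49 for the large subunit (Mrpl) and 29 for the small subunit (Mrps). They were measured in 5 bulk RNA-seq libraries of total RNA from bone marrow monocytes of wild-type mice. G-CSF (granulocyte colony-stimulating factor, the cytokine that drives granulocyte production) had been given for 3 libraries, and 2 libraries were untreated and served as controls. The labels give no dose, route, duration, strain, age or sorting scheme. Nothing says that the replicates were different animals, so p-values measure only a spread between libraries that may be technical. The other 14 of the 19 samples are single-cell libraries from skin of wild-type mice or Cxcr2 knockouts and were not used here.

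Mitochondria keep a small genome that encodes core subunits of the respiratory chain and the ATP synthase, and they translate it on their own ribosome. The ribosomal RNAs of that ribosome come from mitochondrial DNA, while all of its proteins are encoded in the nucleus, made in the cytosol and imported. Part of these proteins have counterparts in the bacterial ribosome and the rest are specific to mitochondria. Their genes are spread over many chromosomes and share nuclear regulators such as NRF1 (nuclear respiratory factor 1) and the ETS-family factor GABP.

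The libraries differed in depth and in makeup. Recovered reads, a lower bound of depth, ranged from 2923773 in control replicate 2 to 6988609 in G-CSF replicate 1. The untreated libraries did not resemble each other: chi-square over degrees of freedom was 99.2 between them and 7.11 to 41.4 between pairs of G-CSF libraries. G-CSF replicate 2 was nearer to control replicate 1 (25.8) than to G-CSF replicates 1 (41.4) and 3 (33.4). All 9 monocyte markers had reads in every library, among them Csf1r, Ccr2 and Ly6c2. All 10 neutrophil markers did too, with summed levels of 11248 and 2110 FPKM (fragments per kilobase of gene, relative to the size of the library) in control replicates 1 and 2 and 4211 to 6459 FPKM with G-CSF. Because control replicate 2 stands apart, differences are also given against each control alone.

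The core promoters of 69 of the 78 genes were found in RefSeq (GRCm38.p6), as 75 windows of 250 bases before to 50 bases after a start. Sequence motifs of nuclear regulators were searched on both strands. The ETS core CCGGAAG was in 34.7% of these windows, against 18.7% of windows of protein-coding genes tested and 8.86% of all windows of that length. GCGCANG, a core of the NRF1 motif, was in 42.7%, against 30.0% and 16.6%, and AAGATGG, a core of the YY1 motif, in 17.3%, against 7.40% and 6.34%. The E-box CACGTG, the site of MYC among other factors, was in 9.33% of member windows and 10.3% of those of protein-coding genes tested. None of these motifs contains another, though their ends can overlap, and a match describes letters in a window, not binding. Of the 69 genes, 20 had none of the ETS, NRF1 and YY1 motifs in their windows. The windows below show Mrpl52, with the largest difference between groups, Mrps21, with the highest level, Mrpl45, with 5 NRF1 matches of which 2 pairs overlap, and Mrps18a, with an ETS and a YY1 match near its start. They are written 5′ to 3′ along the gene's strand, with matches to the ETS, NRF1 and YY1 motifs in capitals.
Mrpl52, chr14:54426659-54426958, plus strand: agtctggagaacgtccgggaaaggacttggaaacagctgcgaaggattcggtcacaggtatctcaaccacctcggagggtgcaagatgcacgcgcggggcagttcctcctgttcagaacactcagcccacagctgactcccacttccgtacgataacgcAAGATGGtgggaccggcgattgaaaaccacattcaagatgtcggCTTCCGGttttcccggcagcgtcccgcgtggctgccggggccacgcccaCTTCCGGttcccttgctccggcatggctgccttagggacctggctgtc
Mrps21, chr3:95871465-95871764, minus strand: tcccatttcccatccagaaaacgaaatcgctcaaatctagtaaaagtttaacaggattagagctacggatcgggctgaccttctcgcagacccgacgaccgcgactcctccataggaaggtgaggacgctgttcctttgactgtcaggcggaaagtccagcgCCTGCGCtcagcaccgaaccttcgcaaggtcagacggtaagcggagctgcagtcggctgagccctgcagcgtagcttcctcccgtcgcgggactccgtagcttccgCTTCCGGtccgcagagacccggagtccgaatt
Mrpl45, chr11:97315466-97315765, plus strand: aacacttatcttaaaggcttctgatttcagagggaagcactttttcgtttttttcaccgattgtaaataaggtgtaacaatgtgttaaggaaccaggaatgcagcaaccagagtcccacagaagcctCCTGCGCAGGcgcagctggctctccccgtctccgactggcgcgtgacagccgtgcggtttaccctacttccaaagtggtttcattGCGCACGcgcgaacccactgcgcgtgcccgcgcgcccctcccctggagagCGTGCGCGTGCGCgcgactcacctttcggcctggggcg
Mrps18a, chr17:46110754-46111053, plus strand: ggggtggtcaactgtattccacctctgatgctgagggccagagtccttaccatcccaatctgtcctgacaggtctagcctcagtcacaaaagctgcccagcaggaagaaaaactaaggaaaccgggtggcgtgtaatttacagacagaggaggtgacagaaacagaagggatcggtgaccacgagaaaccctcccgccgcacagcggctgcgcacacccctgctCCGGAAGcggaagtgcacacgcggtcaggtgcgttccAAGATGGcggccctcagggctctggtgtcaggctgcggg

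Transcripts of nearly all of these genes were present at low to moderate levels. Averaged over the 5 libraries, 12 genes had at least 10 FPKM and 14 had under 2 FPKM. FPKM divides reads by the merged length of all annotated exons of a gene, so the order of genes depends on that length too. In control replicate 1, Mrps25 had 427 reads over 6576 bases and 6.98 FPKM. Mrps21 had 146 reads over 739 bases there. Mrps21, which encodes the counterpart of bacterial small subunit protein S21, had the highest level, 21.2 and 14.8 FPKM in the controls and 37.6, 24.8 and 39.1 FPKM with G-CSF. Each G-CSF library was above both controls for this gene. The highest large subunit gene was Mrpl34, at 13.5 and 18.1 FPKM without and 22.6, 19.5 and 20.9 FPKM with G-CSF. In the order of mean levels, 76 of the 77 neighbouring pairs overlapped in their library values; the exception was the step down to Mrpl53, the lowest gene. Mrpl53 had 0, 1, 0, 3 and 0 reads, so in control replicate 1 its level was at most 0.408 FPKM by the limit of 3 reads that a count of 0 allows.

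**Figure D1:**
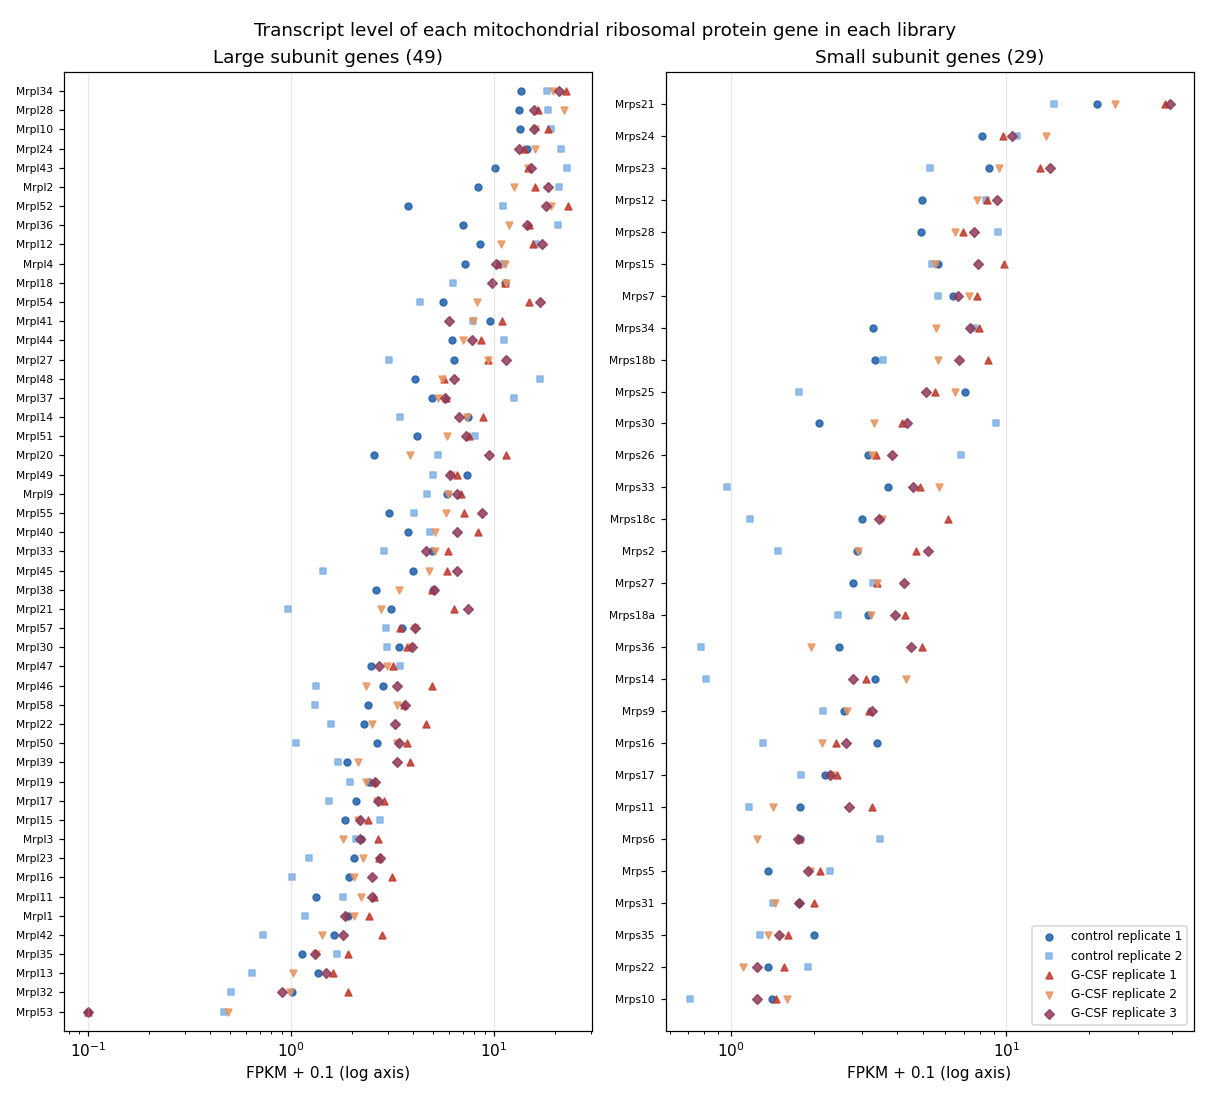
Level of each gene in each library, as FPKM + 0.1 on a log axis, ordered by mean level within the large subunit (left, 49 genes) and the small subunit (right, 29 genes). Symbols stand for the 5 libraries. Mrps21 and Mrpl34 lead their subunits in FPKM, an order that depends on exon length as well as on reads. Control replicate 2 (light squares) lies at the low or the high end for many genes.

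The question of the design was which transcripts of monocytes change under G-CSF. The mitochondrial ribosomal protein genes leaned towards higher values with G-CSF, by small amounts, and 0 of them passed the test over all genes. Of the 78 genes, 76 reached the minimum level (1 FPKM or more in 2 or more libraries) and were tested with limma on log2(FPKM + 1). Of these, 64 had a positive log2 fold change, 84.2% against 56.3% of all 16791 genes tested and 59.9% of protein-coding genes tested. Values ran from -0.47 to 1.48 on the log2 scale, and the median was 0.27, against 0.08 for all genes and 0.12 for protein-coding genes tested. By limma, 0 of 76 genes had an adjusted p under 0.05 in either direction, where 0.00596% of all genes did, and the smallest adjusted p was 0.314. At an unadjusted p under 0.05, 8 of 76 were higher and 0 lower, where 7.9% and 4.76% of all genes were. Groups did not overlap for 28 higher genes, where 20.0% of all genes showed this, and for 1 lower gene, where 11.9% did. Of protein-coding genes in that fit, 8.3% were higher at this p and 23.7% were higher with no overlap. The count of 8 is near its background and does not set these genes apart. With protein-coding genes alone in the fit, 12 of 76 were higher at an unadjusted p under 0.05, where 10.4% of genes were, and 0 passed the adjustment, where 0.314% did. By voom on recovered reads 5 were higher at this p, where 7.17% were, and 0 passed, where 0.034% did. With voom on protein-coding genes alone 7 were higher, where 9.0% were, and 0 passed, where 0.12% did.

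The subunits had nearly the same median difference. The large subunit had 40 of 47 tested genes positive and a median of 0.27, and the small subunit 24 of 29 and a median of 0.27. Summed levels of the large subunit were 234 and 316 FPKM in control replicates 1 and 2 and 369, 307 and 346 FPKM with G-CSF. The small subunit summed to 117 and 114 FPKM without and 173, 139 and 169 FPKM with G-CSF. The small subunit sums were therefore separate between the groups, whereas control replicate 2 lay inside the G-CSF range for the large subunit. The ratio of large to small subunit sums was 2.003 and 2.77 in the controls and 2.13, 2.21 and 2.05 with G-CSF. By class, the median was 0.27 for large subunit genes with bacterial counterparts (29 tested), 0.35 for large subunit genes specific to mitochondria (18), 0.27 for small subunit genes with counterparts (16) and 0.29 for small subunit genes specific to mitochondria (12). Mrps18a and Mrps30 encode proteins that sit in the large subunit despite their names, and with them moved and Mrps36 left out the medians were 0.27 and 0.27.

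**Figure D2:**
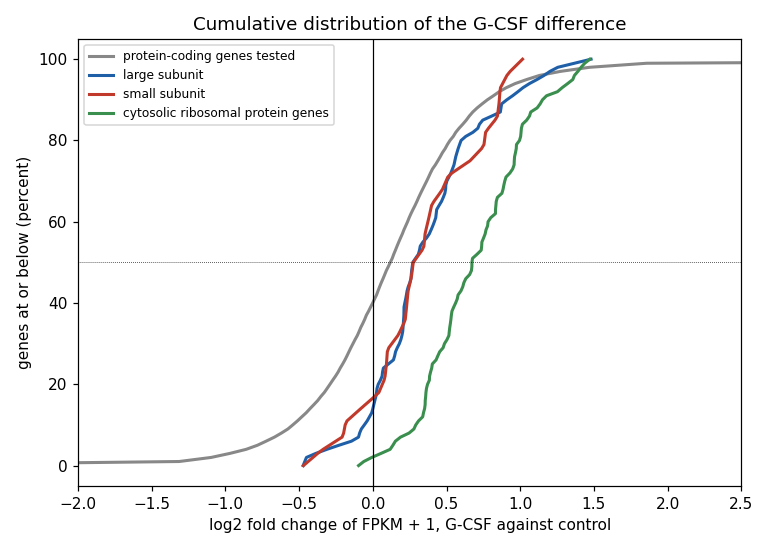
Share of genes at or below each log2 fold change of FPKM + 1, for the large subunit, the small subunit, cytosolic ribosomal protein genes and all protein-coding genes tested. Both subunit curves cross 50% at 0.27, to the right of all protein-coding genes (0.12) and to the left of the cytosolic ribosomal protein genes (0.67).

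As a share of reads in protein-coding genes, the large subunit took 0.0920% (exact 95% binomial interval 0.0895 to 0.0946) and 0.109% (0.105 to 0.114) in control replicates 1 and 2. With G-CSF it took 0.115%, 0.103% and 0.107%. The small subunit took 0.0505% (0.0487 to 0.0525) and 0.0430% (0.0404 to 0.0457) without G-CSF and 0.0565%, 0.0515% and 0.0541% with it. These intervals cover counting error only. A gene's value rested on a median of 30 reads in control replicate 2 and of 87.5 to 114 reads in the other libraries, and 12 genes had under 10 reads in control replicate 2.

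Mrpl52, which encodes a large subunit protein specific to mitochondria, had the largest difference. It measured 3.69 and 10.9 FPKM in control replicates 1 and 2, and 23.1, 19.0 and 17.8 FPKM with G-CSF. The groups were separate, but control replicate 2 was far above control replicate 1. The log2 fold change was 1.48 ± 0.43 (SE), with a limma adjusted p of 0.318. Set against single controls it was 2.15 (replicate 1) and 0.81 (replicate 2). Mrpl54, likewise specific to mitochondria, had the smallest p of all members. It measured 5.48 and 4.20 FPKM without G-CSF (4.84 ± 0.905, SD, n = 2) and 14.8, 8.10 and 16.7 FPKM with it (13.2 ± 4.51, SD, n = 3). Every G-CSF library exceeded both controls, and the log2 fold change of 1.23 ± 0.36 (SE) did not pass (limma adjusted p = 0.314).

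Mrps18b, a mammalian relative of bacterial protein S18 counted here among the mitochondria-specific genes, had close controls, at 3.24 and 3.45 FPKM. Its G-CSF libraries measured 8.46, 5.56 and 6.65 FPKM. For this gene the difference was nearly the same against control replicate 1 (0.88) and control replicate 2 (0.81). The log2 fold change was 0.84 ± 0.25 (SE), at a limma adjusted p of 0.320. Mrpl55 measured 2.93 and 3.93 FPKM without and 7.02, 5.71 and 8.59 FPKM with G-CSF, again with no overlap. Mrpl27, the counterpart of a bacterial protein next to the peptidyl transferase centre, measured 6.22 and 2.93 FPKM without and 9.21, 9.29 and 11.4 FPKM with G-CSF. Their log2 fold changes were 0.86 ± 0.27 and 1.04 ± 0.33 (SE; limma adjusted p of 0.327 and 0.336). For Mrpl27 the difference was 0.60 against control replicate 1 and 1.48 against control replicate 2, and it passed when control replicate 1 was left out (limma adjusted p = 0.0176). Exons of Mrpl27 overlap those of Eme1 on the other strand, and it is not known whether strand was used in counting.

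Mrpl58 (also known as Ict1) encodes a peptidyl-tRNA hydrolase built into the large subunit that can free stalled ribosomes. It measured 2.29 and 1.21 FPKM in the controls and 3.49, 3.21 and 3.53 FPKM with G-CSF, with a narrow G-CSF range above both controls. Mrpl45, whose protein tethers the ribosome to the inner membrane near the exit tunnel, measured 3.89 and 1.33 FPKM without and 5.74, 4.67 and 6.44 FPKM with G-CSF. For Mrps21 the log2 fold change was 0.86 ± 0.33 (SE). For Mrps33 the controls were 3.61 and 0.865 FPKM and the G-CSF libraries 4.75, 5.61 and 4.49 FPKM, and 5 reads lay behind the value in control replicate 2. Mrps23 measured 8.55 and 5.18 FPKM without and 13.1, 9.29 and 14.3 FPKM with G-CSF. The limma adjusted p of these 5 genes lay between 0.375 and 0.401, so 0 passed, and in all 5 the G-CSF libraries were above both controls. When control replicate 1 was left out, Mrpl58, Mrpl45 and Mrps33 passed, with differences of 0.99, 1.49 and 1.67 and limma adjusted p of 0.0243, 0.0192 and 0.0154.

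**Figure D3:**
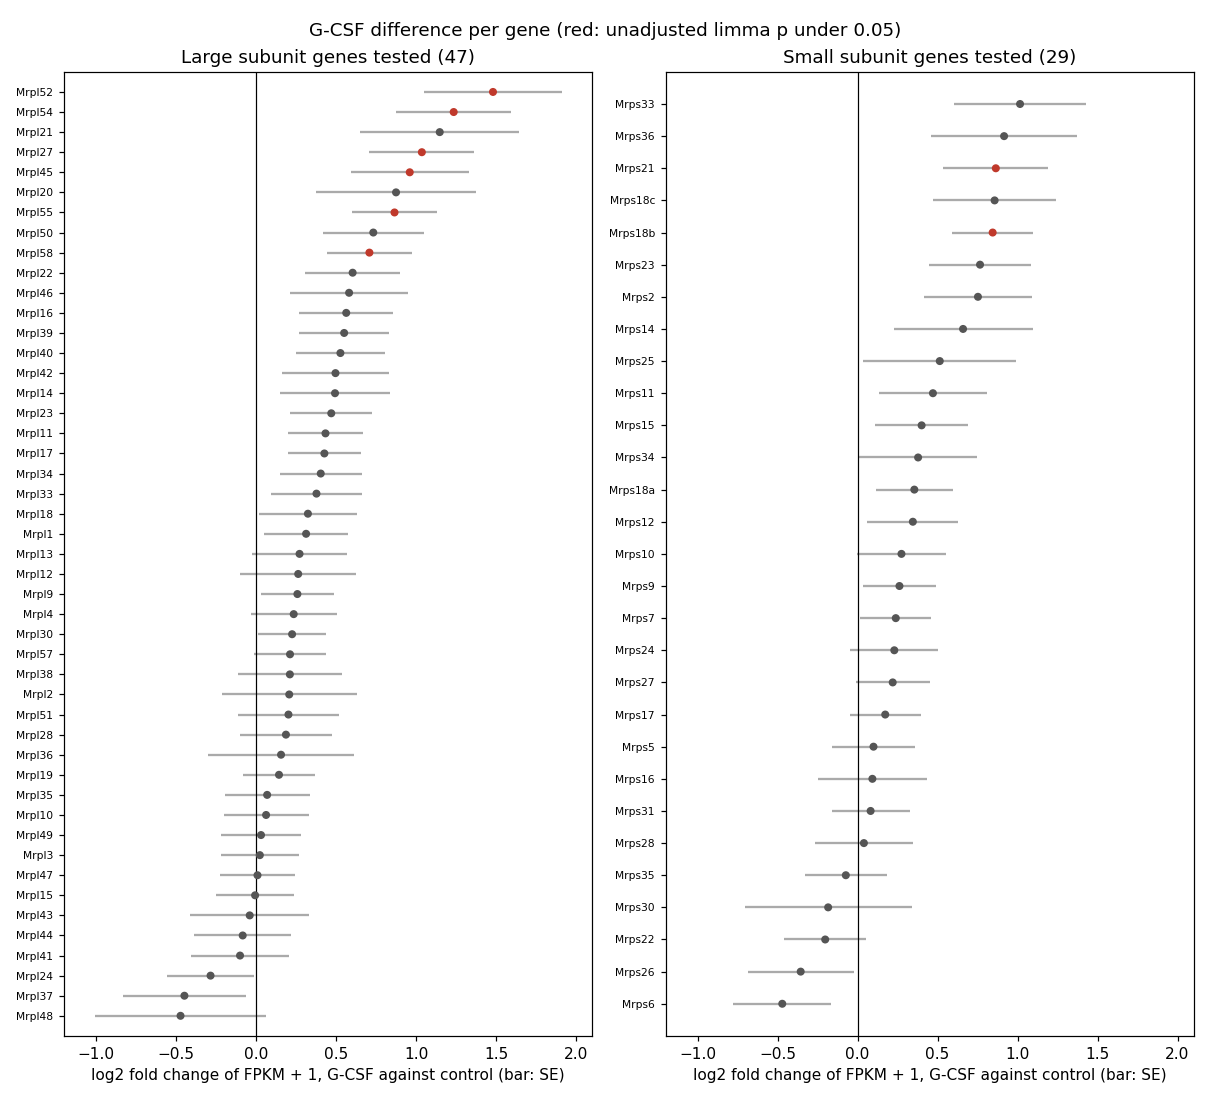
The log2 fold change of FPKM + 1 for each tested gene with its standard error, for the large subunit (left, 47 genes) and the small subunit (right, 29 genes). Red points are the 8 genes with an unadjusted p under 0.05, led by Mrpl52 at 1.48; the lowest point is Mrpl48 at -0.47.

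Genes at the lower end were set apart by control replicate 2. Mrpl48, a large subunit protein specific to mitochondria, had the lowest log2 fold change of its subunit, -0.47 ± 0.54 (SE; limma adjusted p = 0.715). It measured 3.97 FPKM in control replicate 1, 16.7 FPKM in control replicate 2, and 5.58, 5.45 and 6.28 FPKM with G-CSF. All G-CSF values were thus between the controls, and the difference was 0.44 against control replicate 1 and -1.39 against control replicate 2, where it passed with that control alone (limma adjusted p = 0.0159). Exons of Mrpl48 overlap those of Rab6a on the other strand. Mrps30 had the same shape, at 1.98 and 9.04 FPKM without and 4.07, 3.19 and 4.27 FPKM with G-CSF, and its difference of -1.06 from control replicate 2 alone passed too (limma adjusted p = 0.0302). Mrpl37, named after its values were seen, measured 4.85 and 12.5 FPKM without and 5.69, 5.21 and 5.63 FPKM with G-CSF. Mrps6, the counterpart of bacterial S6, was the 1 gene whose G-CSF libraries were all below both controls, at 1.68 and 3.39 FPKM without and 1.67, 1.14 and 1.66 FPKM with G-CSF (log2 fold change -0.47 ± 0.31, SE; limma adjusted p = 0.527). Its lowest G-CSF value rests on 17 reads, and its exons overlap Slc5a3 on the same strand.

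The abundant members outside these extremes differed little, and the genes of this paragraph were chosen after their values were seen. Mrpl2, the counterpart of bacterial L2 next to the peptidyl transferase centre, measured 8.27 and 20.7 FPKM without and 15.9, 12.4 and 18.4 FPKM with G-CSF. Mrpl10, which holds the stalk to the ribosome, measured 13.3 and 18.9 FPKM without and 18.3, 15.9 and 15.7 FPKM with G-CSF. For both genes every G-CSF library lay between the controls. Mrps24 measured 8.07 and 10.8 FPKM without and 9.60, 13.8 and 10.4 FPKM with G-CSF, so here the groups overlapped too. Among the less abundant genes, Mrpl21 differed by 1.15 ± 0.50 in log2 (SE), at a limma adjusted p of 0.411, from 2.99 and 0.861 FPKM without and 6.25, 2.66 and 7.31 FPKM with G-CSF. Its G-CSF replicate 2 was below control replicate 1, and 6 reads lay behind the value in control replicate 2. Mrps2, the counterpart of bacterial S2, measured 2.76 and 1.38 FPKM without and 4.58, 2.78 and 5.08 FPKM with G-CSF, where the lowest G-CSF value barely cleared the higher control. Mrps18c, another relative of S18, measured 2.90 and 1.07 FPKM without and 6.05, 3.44 and 3.35 FPKM with G-CSF, with 4 reads behind the lower control. The 28 genes higher with no overlap had log2 fold changes between 0.17 and 1.48.

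Other members were described for their roles. Mrpl12, of the stalk that recruits translation factors, also binds the mitochondrial RNA polymerase. It measured 8.42 and 16.0 FPKM without and 15.4, 10.7 and 17.2 FPKM with G-CSF, so the groups overlapped (log2 fold change 0.26 ± 0.36, SE). Mrpl44, a protein with a ribonuclease III fold, stood at -0.08 ± 0.30 (SE) on the same scale, and Mrps12, of the decoding centre, 0.35 ± 0.28 (SE). Mrps18a had 0.35 ± 0.24 (SE), with every G-CSF library above both controls. Mrps36, since found in the 2-oxoglutarate dehydrogenase complex, measured 2.36 and 0.679 FPKM without and 4.84, 1.86 and 4.41 FPKM with G-CSF. Its difference of 0.92 ± 0.46 (SE) had a limma adjusted p of 0.449, and was 0.41 against control replicate 1 and 1.42 against control replicate 2. The value in control replicate 2 rests on 3 reads, and G-CSF replicate 2 was below control replicate 1. Mrpl32, whose protein is matured by an inner membrane protease, missed the minimum level, at 0.907 and 0.405 FPKM without and 1.80, 0.888 and 0.805 FPKM with G-CSF. It had 42 and 7 reads without and 77, 43 and 30 with G-CSF, over 4982 bases of exon. Mrpl22 had fewer reads in each library (20 and 5, and 38, 23 and 23) over 981 bases and reached that level. Missing the minimum thus went with exon length and not with few reads alone. Rows of 5 pseudogenes with Mrpl or Mrps symbols were left out. Mrpl23-ps1 had 7.60 and 3.48 FPKM without and 10.6, 7.09 and 8.99 FPKM with G-CSF. Mrpl23 itself had 1.94 and 1.12 FPKM without and 2.60, 2.17 and 2.63 FPKM with it. The values of Mrpl23 rest on 88 and 19 reads without and 109, 103 and 96 with G-CSF, divided by 4883 bases of exon. The gap in FPKM therefore depends on exon length and does not show that the copy had more reads. Whether reads of that gene and its copy were split cannot be traced.

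Against each control in turn, the genes fell into different patterns. Of 76 genes, 44 were higher in the G-CSF mean than in both controls and 3 were lower than both. A further 20 were above control replicate 1 and below control replicate 2, and 9 were the reverse. Of 10524 protein-coding genes tested, the counts in the same order were 3810, 1996, 2308 and 2410. The members' median difference was 0.30 against control replicate 1 and 0.34 against control replicate 2. For protein-coding genes tested it was 0.09 and 0.19. The direction of the members' median therefore did not rest on 1 control, which also held for protein-coding genes. The controls differed from each other by a median of 0.53 in absolute log2 value, which was larger than the members' median G-CSF difference. For protein-coding genes tested the gap between controls was 0.59. The 17 genes with a mean of at least 8 FPKM had a median of 0.51 against control replicate 1 and -0.04 against control replicate 2. For the 29 tested genes under 3 FPKM the medians were 0.19 and 0.53. When control replicate 1 was left out, 12 of 76 genes passed by limma, 8 higher and 4 lower, where 28.0% of all genes passed. At an unadjusted p under 0.05, 24 were then higher, where 26.7% of all genes were, and 8 lower, where 18.6% were. When control replicate 2 was left out, 0 passed by limma. At an unadjusted p under 0.05, 14 were then higher, where 10.7% of all genes were, and 0 lower, where 7.84% were.

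**Figure D4:**
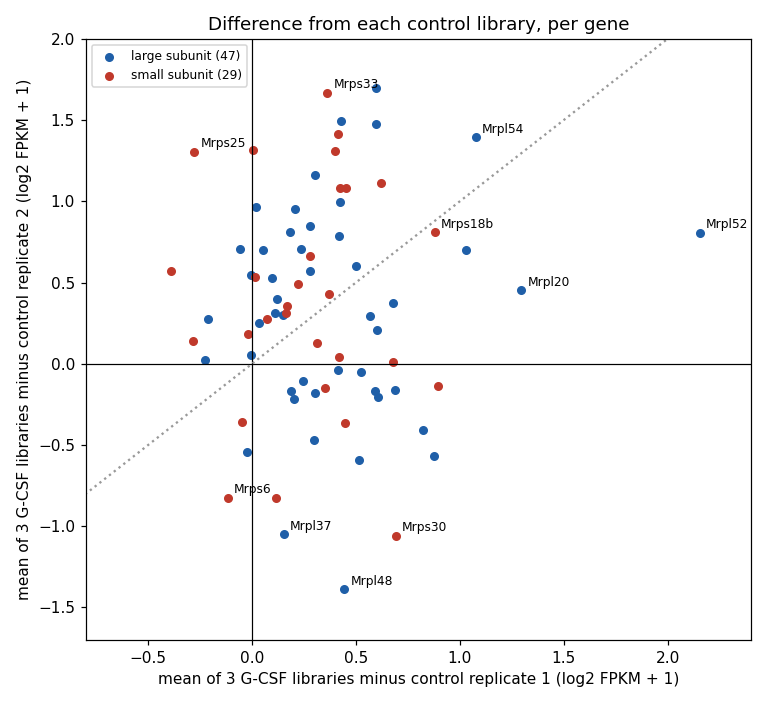
Mean of the 3 G-CSF libraries minus control replicate 1 (horizontal) and minus control replicate 2 (vertical), in log2(FPKM + 1), for 47 large and 29 small subunit genes; the dotted line marks equal differences. The upper right of the plot holds the 44 genes above both controls, and Mrpl48, Mrps30 and Mrpl37 lie at the bottom right, above control replicate 1 and far below control replicate 2.

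Among the G-CSF libraries, replicate 2 had the lowest value for 50 of 76 genes, which held for 44.6% of protein-coding genes tested. The median range over the 3 libraries was 0.31 in log2 for the members and 0.31 for protein-coding genes tested. Mrpl20 showed the pattern, at 11.3, 3.77 and 9.40 FPKM in G-CSF replicates 1, 2 and 3, against 2.46 and 5.20 FPKM in the controls. The gene was named after its values were seen.

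Summed marker levels of some cell types were separate between the groups and others were not. Sums of monocyte markers overlapped, at 4032 and 1493 FPKM without G-CSF and 3396 to 6040 FPKM with it. Gene by gene, 8 of these 9 had a positive log2 fold change (median 1.02). With no overlap between groups 7 were higher, where 20.0% of all genes were, and 1 lower, where 11.9% were. At an unadjusted limma p under 0.05, 5 were higher, where 7.9% of all genes were, and 0 passed the adjustment. Sums of neutrophil markers with G-CSF lay between the controls. The sums were separate between the groups for the other lists given here. The 6 granulocyte-monocyte progenitor markers, all with reads in every library, summed to 205 and 94.1 FPKM without and 501 to 641 FPKM with it. The 8 markers of cycling cells all had reads in every library. They summed to 152 and 148 FPKM without and 106 to 130 FPKM with G-CSF. Of these 8, 5 had a positive log2 fold change (median 0.14), so most did not follow the lower sum. The median was -0.31 against control replicate 1 and 0.48 against control replicate 2. The 7 B cell markers summed to 176 and 90.5 FPKM without and 43.3 to 62.0 FPKM with G-CSF, and 5 eosinophil and basophil markers to 90.4 and 185 FPKM against 49.9 to 66.9 FPKM. Of these 5, 4 were tested, 1 with a positive log2 fold change and 3 with a negative one. Against control replicate 2 alone, 2 were positive. The 5 T and NK cell markers summed to 5.46 and 2.41 FPKM without and 8.07 to 11.9 FPKM with G-CSF. Cd3g, Klrb1c and Trac were at 0 in some libraries, and only 1 of the 5 reached the minimum level. That gene averaged 6.77 FPKM, against a median of 0.144 FPKM over the 5, so it made up most of the sum. The 6 stromal markers summed to 11.2 and 23.6 FPKM against 4.38 to 8.32 FPKM, with Lepr and Cxcl12 at 0 in some. Of these, 2 were tested, 1 with a positive log2 fold change and 1 with a negative one. The part of these cells in the differences was not tested, and in bulk RNA fewer cells of a type and less RNA per cell cannot be told apart.

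The rest of the machinery of mitochondrial gene expression did not lean the same way throughout. In every list below, 0 genes passed the adjustment over all genes by limma. For the counts at an unadjusted limma p under 0.05, the shares over all genes tested were 7.9% higher and 4.76% lower. Of 5 mitoribosome proteins under other symbols, 3 were positive, with a median of 0.14 and 0 at an unadjusted p under 0.05. Chchd1 and Gadd45gip1 differed by 0.76 ± 0.43 and 0.50 ± 0.32 in log2 (SE), and Ptcd3 by 0.14 ± 0.33. Dap3 measured 5.47 and 18.7 FPKM without and 6.30, 6.82 and 5.96 FPKM with G-CSF, all between the controls, so its difference of -0.62 ± 0.48 (SE) was 0.18 against control replicate 1 and -1.42 against control replicate 2. Aurkaip1, the most abundant, measured 16.6 and 42.3 FPKM without and 23.1, 21.5 and 21.2 FPKM with G-CSF, likewise between the controls. Of 12 tested translation factors 8 were positive, with a median of 0.11 and 0 at an unadjusted p under 0.05. The elongation factor gene Gfm1 measured 3.29 and 3.07 FPKM without and 6.45, 4.21 and 5.87 FPKM with G-CSF, and did not pass (limma adjusted p = 0.396). Tufm, the elongation factor that delivers tRNAs and the most abundant of the list, measured 11.9 and 10.995 FPKM without and 14.4, 12.1 and 13.5 FPKM with G-CSF.

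Mitochondrial aminoacyl-tRNA synthetases and the tRNA amidotransferase had 9 of 21 tested genes positive and a median of -0.15. At an unadjusted p under 0.05, 1 was higher and 0 lower. That 1 was Gars, the glycyl-tRNA synthetase shared with the cytosol, at 11.4 and 10.9 FPKM without and 20.7, 17.6 and 18.9 FPKM with G-CSF (log2 fold change 0.72 ± 0.23, SE; limma adjusted p = 0.339). Qrsl1, a subunit of the amidotransferase, and Kars, the lysyl enzyme also shared with the cytosol, had 0.65 ± 0.31 and 0.52 ± 0.26 (SE). Factors of ribosome assembly and rRNA modification had 11 of 24 positive and a median of -0.02. Here 0 were higher at that p and 1 was lower. The latter was Trub2, a pseudouridine synthase, at 6.56 and 24.3 FPKM without and 4.13, 5.88 and 3.89 FPKM with G-CSF (limma adjusted p = 0.394). Rbfa, which helps to mature the small subunit, measured 27.0 and 23.8 FPKM without and 20.9, 17.5 and 20.9 FPKM with G-CSF, below both controls in each library. Set beside these lists, the ribosomal proteins had the higher median and their assembly factors did not, though the difference between the lists was not tested.

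Genes of mitochondrial DNA transcription and RNA handling had 11 of 18 positive, and a median of 0.11. At that p, 1 was higher and 0 lower. This was Tfb2m, the initiation factor of mitochondrial transcription, at 1.84 and 1.03 FPKM without and 4.44, 2.31 and 3.62 FPKM with G-CSF (limma adjusted p = 0.372). Of the 13 genes encoded in mitochondrial DNA, 4 were positive and the median was -0.40, with 0.84 against control replicate 1 and -1.40 against control replicate 2. All 13 were higher in control replicate 2 than in control replicate 1. The mitochondrial rRNA gene mt-Rnr1 measured 182 and 373 FPKM without and 8569, 156 and 4636 FPKM with G-CSF, so G-CSF replicate 2 stood with the controls. Chaperones, proteases and insertion factors of the inner membrane had 10 of 14 positive, and a median of 0.29. At that p, 3 were higher and 0 lower, where 7.9% and 4.76% of all genes were. These were the chaperonin genes Hspd1 and Hspe1 and the import motor gene Hspa9, with log2 fold changes of 1.17 ± 0.30, 1.00 ± 0.29 and 1.08 ± 0.34 (SE; limma adjusted p from 0.282 to 0.336). Of 8 tested regulators 3 were positive, with a median of -0.14 and 0 at an unadjusted p under 0.05. The sign of that median turned with the control, at 0.30 against control replicate 1 and -0.44 against control replicate 2. Pprc1, a coactivator of nuclear respiratory factors, stood at 0.43 ± 0.30 (SE), Yy1 at -0.56 ± 0.52 and the nuclear receptor gene Esrra at -0.50 ± 0.49.

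**Figure D5:**
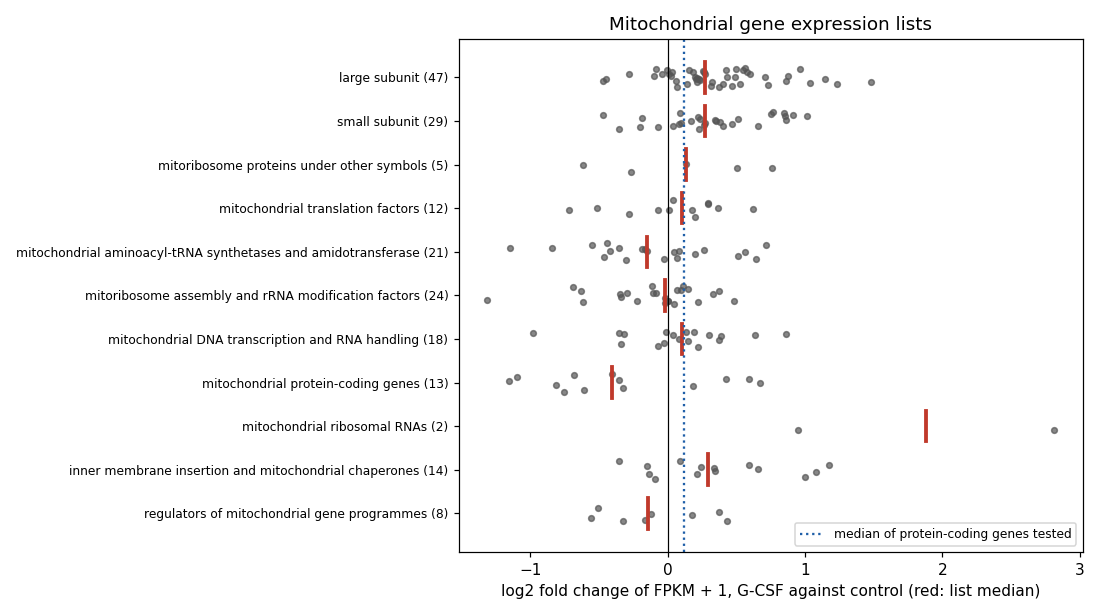
The log2 fold change of FPKM + 1 of each tested gene (points), by list, with list medians as red bars and the median of protein-coding genes tested as a dotted line. Both subunit medians lie at 0.27, the synthetases at -0.15 and the genes of mitochondrial DNA at -0.40; the list of 2 mitochondrial rRNAs spans 0.95 to 2.81.

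The most similar gene sets had larger values. Of 77 tested cytosolic ribosomal protein genes, 75 were positive, 14 were higher and 0 lower at that p, and the median was 0.67. Nuclear genes of oxidative phosphorylation had 73 of 82 positive, 13 higher and 1 lower, and a median of 0.49. Of all genes tested, 7.9% were higher and 4.76% lower at that p, and of protein-coding genes 8.3% were higher. Against control replicate 1 alone the medians were 0.39 and 0.47, and 0.30 for the mitochondrial ribosomal protein genes. Against control replicate 2 they were 1.05 and 0.57, and 0.34. These differences between sets were not tested.

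The genes lay on 17 chromosomes. For 18 of the 78 (23.1%), a protein-coding gene on the other strand started at most 1000 bases before the gene's own start. This held for 10.7% of protein-coding genes tested. Pairs that overlap at their starts, such as Mrpl46 and Mrps11, were not counted. For 14 of the 18 pairs both genes were tested. The mitochondrial ribosomal protein gene had the higher log2 fold change in 11 of the 14, with medians of 0.29 for these genes and -0.01 for their partners. Mrpl54 (chromosome 10, 81264713 to 81266934, minus strand of GRCm38) starts 26 bases from Apba3, and their log2 fold changes were 1.23 and 0.29. Mrps12 (chromosome 7, 28739641 to 28741820, minus strand) starts 172 bases from Sars2, the mitochondrial seryl-tRNA synthetase, with values of 0.35 and -0.03. Mrps18b (chromosome 17, 35910379 to 35916389, minus strand) starts 45 bases from Ppp1r10, with 0.84 and 0.07. Exons of 33 of the 78 genes overlap exons of another gene, 28 on the other strand and 8 on the same strand, some on both. Part of the reads in the 28 cannot be assigned without knowing whether counting used strand. For overlaps on the same strand, strand would not settle it. By presence of a motif, the median log2 fold change was 0.38 for the 25 tested genes with an ETS match and 0.26 for the 42 without. It was 0.26 for the 30 with an NRF1 match and 0.35 for the 37 without. For YY1 it was 0.23 for the 12 with a match and 0.38 for the 55 without. Differences by motif were not tested.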

How the data were processed

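The authors deposited 1 table of FPKM values with 1 column per library, symbols and gene types, and no counts. Per the submitters' processing notes the build was mm10, and the 1 tool named there is Cell Ranger 5.0.1, made for single cells. For the bulk libraries, the aligner, counter, annotation release and strandedness are not given in the sources used here. A protocol attached to the labels describes skin cells.

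Reads were recovered as FPKM times exon length in GENCODE M21 (GRCm38) divided by what 1 read is worth in a library. They came out whole, to 0.001 reads, for 94.3% of matched rows (89.6% of rows matched) and for all 78 members. The divisors used by the authors kept to size factors by median of ratios within 2.65%, so values were already scaled between libraries.

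The 16791 genes with 1 FPKM or more in 2 or more libraries were tested as log2(FPKM + 1). The tool was limma 3.58.1 under R 4.3.3, with a trended empirical Bayes variance, a two-sided p and Benjamini-Hochberg adjustment over all genes at 0.05. A pseudocount of 1 understates the change of low genes. The fit was run on simulated data with changes larger than that of any member, so that run does not bear on differences of their size. Members and lists were chosen with earlier results of these data known, so lists are given by counts and medians, without a test. Named were the 10 members with the smallest p, the highest level and the extreme fold changes per subunit, members under the minimum, 7 members chosen for their roles, and from each list up to 3 genes with the smallest p and the most abundant; some such genes of the lists are not described. The sets of cytosolic ribosomal protein and oxidative phosphorylation genes were added after the data were seen, by symbol. NRF1 and YY1 were first searched by longer motifs and are given by shorter cores, chosen after those were seen. Alternatives covered the pseudocount, filter, scaling, gene set, voom, a replicate block and each library left out. The result of 1 list of cell type markers is not reported here. Older symbols were matched through RefSeq. Python 3.11.15 with pandas 2.3.3 and matplotlib 3.10.9 was used for other steps.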

Additional observations from a re-analysis of the deposited data

How the results depend on the processing

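The number of members with an adjusted p under 0.05 was 0 under every other pseudocount, filter, scaling, fit and gene set tried, and without each library except control replicate 1, where it was 12 (range 0 to 12 over libraries left out). A fit with 1 control left takes its spread from the G-CSF libraries and assumes that the lone control varies like them. Members higher at an unadjusted p under 0.05 (8) numbered 5 with equal protein-coding sums (5.64% of all genes), 5 with voom on recovered reads, and 1 to 24 over the libraries left out, with 1 without G-CSF replicate 1 (3.12% of all genes), 1 without G-CSF replicate 3 (3.38%), 14 without control replicate 2 and 24 without control replicate 1. Members lower (0) numbered 0 to 8 over the libraries left out. By voom 0 members passed (smallest adjusted p 0.230, or 0.183 with protein-coding genes only). The median of the small subunit (0.27) was 0.389 with a minimum FPKM of 5, 0.393 with a pseudocount of 0.1, 0.392 with voom and 0.392 with voom on protein-coding genes only, and that of the large subunit (0.27) was 0.165 with a pseudocount of 5. Both stayed positive under every alternative, from 0.249 to 0.363 (large) and 0.266 to 0.357 (small) over the libraries left out. Of 76 members, 20 were positive against control replicate 1 only and 9 against control replicate 2 only; among those the naming rule chose, leaving out 1 library turned the direction for Mrpl48 (-1.39 to 0.443), Mrps30 (-1.06 to 0.691), Mrpl44 (-0.467 to 0.299) and Mrpl12 (-0.163 to 0.689), the ends of each range being the fits without 1 control; the cause beyond the gap between the controls was not tested. With the replicate number as a block, 1 member was higher at an unadjusted p under 0.05, where 3.36% of all genes were, and 0 members and 0 of all genes passed. Same-numbered libraries did not deviate together (correlations of -0.07 and -0.23 over genes), so the numbers are not taken as a pairing. Depth limits genes with few reads, as in control replicate 2.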
